A study of Homo sapiens with 4 samples.

Results

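The nuclear-encoded subunits of the oxidative phosphorylation machinery were examined in 2 human B-cell lymphoma lines and their rituximab-resistant sublines. Genes were chosen by symbol, as probe sets with exactly 1 annotated symbol whose name is that of a subunit of NADH dehydrogenase (complex I), succinate dehydrogenase (complex II), the cytochrome bc1 complex (complex III), cytochrome c oxidase (complex IV) or ATP synthase (complex V). This gave 77 genes of 19775 genes with a value, read by 149 probe sets of 54613. They comprised 33 genes of complex I, 3 of complex II, 7 of complex III, 17 of complex IV and 17 of complex V. Assembly factors whose symbols begin with NDUFAF (8 genes), 2 pseudogenes and 3 non-coding transcripts named after subunit genes were left out. SDHB, NDUFA4, NDUFA4L2, NDUFS5, NDUFS8, NDUFC2, UQCRH and UQCRFS1 were not analysed here.

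The 4 groups were Jeko-1/R, a rituximab-treated and resistant subline, its parental line Jeko-1, Raji/R, a subline of the same kind, and its parental line Raji. Jeko-1 cells derive from a mantle cell lymphoma and Raji cells from a Burkitt lymphoma, and rituximab is a therapeutic antibody against CD20 on the surface of B cells. The study asked how gene expression in the resistant sublines differs from that of their parents. Each group was 1 culture read on 1 Affymetrix oligonucleotide array from total RNA, so there were no replicates. The dose and length of rituximab exposure, and whether a subline is a clone, are not given in the sources used here.

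In the inner mitochondrial membrane, complexes I and II pass electrons from NADH and succinate to coenzyme Q, complex III passes them on to cytochrome c, and complex IV delivers them to oxygen. Complexes I, III and IV pump protons as they do so, and ATP synthase uses the returning protons to make ATP. All of them except complex II combine subunits from nuclear genes with subunits encoded by mitochondrial DNA, and the nuclear genes are transcribed in most cell types. Several complex IV subunits come as a ubiquitous isoform and one found mainly in a particular tissue such as heart and muscle, lung or testis.

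The deposited values were MAS5 signals on the log2 scale, and the pooled median of all values (log2 6.28, a signal of 77.5) served as a floor to which lower values were raised. The share of probe sets above the floor was 48.1% on Jeko-1/R, 48.0% on Jeko-1, 55.6% on Raji/R and 48.3% on Raji, so Raji/R stood apart at low signals. The brightest signal of any probe set was 43902 on Jeko-1/R and 46440 on Jeko-1, against 148402 on Raji/R and 100984 on Raji, so the Raji arrays reached further at high signals. The B-cell markers CD79A, CD79B, MS4A1 and PAX5 (4 of 5 in the list had a value) were above the floor on all 4 arrays, with summed signals of 36305 on Jeko-1/R, 38415 on Jeko-1, 36062 on Raji/R and 38624 on Raji. CCND1 and SOX11, which mark mantle cell lymphoma, summed to 23131 and 25014 on the Jeko-1 arrays and were below the floor on both Raji arrays. Of the markers of T cells, NK cells, myeloid, epithelial and stromal cells, CD3E, NCR1, CD14, LYZ, KRT19 and COL3A1 were below the floor on every array. The brightest of the others were CD247, at 2212 in Jeko-1/R and 2185 in Jeko-1, against 147 in Raji/R and 218 in Raji, and NKG7 and COL1A1. NKG7 had 28.1 and 59.2 in the Jeko-1 cultures, against 1749 and 883 in the Raji cultures, and COL1A1 had 37.7 and 97.7 in the Jeko-1 cultures, against 1465 and 1916 in the Raji cultures. The summed signal of the 4 T-cell markers was 2379 on Jeko-1/R and 2266 on Jeko-1, against 436 on Raji/R and 472 on Raji. The 4 NK-cell markers summed to 130, 206, 2045 and 1073 on Jeko-1/R, Jeko-1, Raji/R and Raji, the 4 myeloid markers to 148, 152, 638 and 525, and the 6 epithelial and stromal markers to 282, 492, 1868 and 2245. The part of other cells in the results was not tested.

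Subunit transcripts were abundant on every array. Of the 77 genes, 70 were above the floor on all 4 arrays, 4 on some of them (COX4I2, COX6A2, COX6B2 and COX8C) and 3 on none (ATP5MF, COX7A1 and COX7B2). The median log2 signal of the genes was 12.86 on Jeko-1/R, 12.88 on Jeko-1, 14.65 on Raji/R and 14.55 on Raji. Apart from ATP5MF, a membrane subunit of ATP synthase whose signals lay between 15.0 and 31.8, each gene at or near the floor was the tissue-restricted partner of a ubiquitous complex IV subunit.

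**Figure D1:**
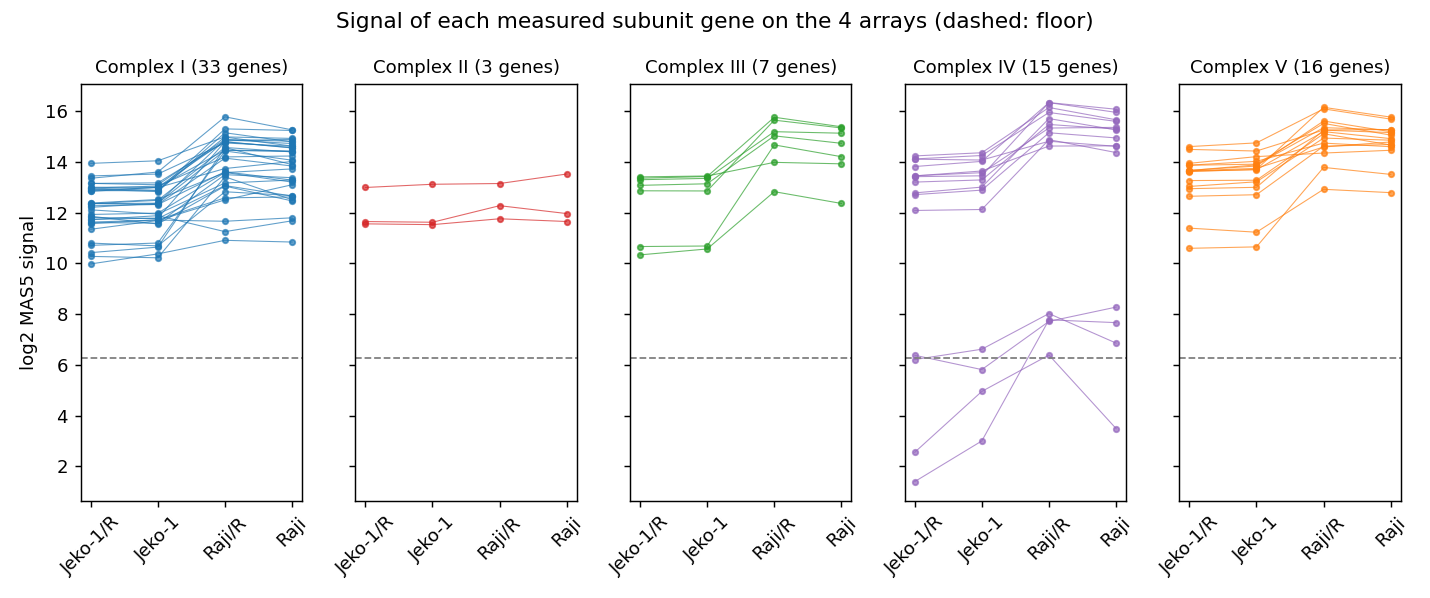
Log2 signal of each subunit gene with at least 1 array above the floor, in 1 panel per complex, with 1 line per gene across the arrays in the order Jeko-1/R, Jeko-1, Raji/R and Raji and the floor dashed. The arrays of a line lie close together for most genes, and the Raji arrays are brighter for most genes of complexes I, III, IV and V.

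In Jeko-1/R, subunit signals lay close to those of parental Jeko-1. Among 72 genes measured in the pair, the median log2 ratio of Jeko-1/R over Jeko-1 was -0.06, with a range of -0.39 to 0.31, and 53 genes were below 0 and 19 above. The median of all 11586 genes measured was 0.00, and that of the upper quartile of genes by mean signal was -0.03. No subunit gene (0) was 2-fold higher or 2-fold lower in Jeko-1/R, against 0.345% and 0.57% of all genes, or 0.0345% and 0.069% of the upper quartile. At 1.5-fold the counts were again 0, against 2.65% and 3.27% of all genes, or 0.207% and 0.725% of the upper quartile. The SD over the subunit genes was 0.12, while probe sets of the same gene differed with a pooled SD of 0.21 over the 40 subunit genes with several measured probe sets. With 1 array in each group, none of these ratios has a replicate check. The median was -0.05 for complex I, 0.03 for complex II, -0.05 for complex III, -0.13 for complex IV and -0.07 for complex V.

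The widest differences in the Jeko-1 pair were in complex I. NDUFS4, an accessory subunit whose loss causes Leigh syndrome, had a signal of 1010 in Jeko-1/R and 1328 in Jeko-1, a log2 ratio of -0.39. NDUFA9, an accessory subunit at the junction of the arms of complex I, had 3713 in Jeko-1/R and 3005 in Jeko-1, a ratio of 0.31. In complex II, SDHC had 3017 in Jeko-1/R and 2952 in Jeko-1 (0.03), and SDHD had 8148 and 8893 (-0.13); both anchor the complex in the membrane. In complex III, the small subunit UQCR10 had 7441 in Jeko-1/R and 7408 in Jeko-1 (0.01), and the core protein UQCRC1 had 1293 and 1519 (-0.23). In complex IV, COX5A had 17624 in Jeko-1/R and 17235 in Jeko-1 (0.03), and COX8A had 7026 and 8231 (-0.23). In ATP synthase, ATP5MC1, one of the genes for the c-ring subunit, had 2684 in Jeko-1/R and 2401 in Jeko-1 (0.16), and ATP5PB of the peripheral stalk had 15756 and 18921 (-0.26). These genes mark the ends of each complex among genes above the floor on all arrays, and all of them lay within 1.5-fold.

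In Raji/R the subunit signals were mostly a little above those of parental Raji. Over 74 genes the median log2 ratio of Raji/R over Raji was 0.16, with a range of -0.60 to 1.16, and 57 genes were above 0 and 17 below. The medians of all 14587 genes and of the upper quartile were 0.08 and -0.02. At 2-fold, 1 subunit gene was higher (COX6A2) and 0 lower, against 6.86% and 2.62% of all genes, or 0.494% and 0.603% of the upper quartile. At 1.5-fold, 3 genes were higher (COX6A2, NDUFB7 and NDUFV1) and 1 was lower (NDUFA10), against 18.5% and 10.4% of all genes, or 4.58% and 6.5% of the upper quartile. After quantile normalization, which gives the 4 arrays one common distribution of signals, the median of the subunit genes was 0.01, and after a signal-dependent lowess adjustment of the ratio it was 0.06. The SD over the subunit genes was 0.29 and that between probe sets of a gene 0.40. Of the 40 genes with several measured probe sets, 17 had every one of them higher in Raji/R.

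By complex, the medians in the Raji pair were 0.13 for complex I, 0.11 for complex II, 0.31 for complex III, 0.20 for complex IV and 0.14 for complex V. All 7 complex III genes were above 0 as deposited. With quantile normalization the median of complex III was 0.03, with 5 of 7 genes above 0, and that of complex IV was -0.03.

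NDUFB7, an accessory subunit of the membrane arm of complex I, had a signal of 10902 in Raji/R and 5821 in Raji, a log2 ratio of 0.91, and its second probe set gave 0.59. NDUFV1, which binds NADH at the start of the electron path, had 24253 in Raji/R and 15208 in Raji (0.67). Its second probe set was dim, at 36.4 in Raji/R and 110 in Raji, and gave -0.50 with the lower value raised to the floor. NDUFA9 lay just below 1.5-fold, with 8459 in Raji/R and 5644 in Raji (0.58). NDUFA10, an accessory subunit of the membrane arm, went the other way, with 5808 in Raji/R and 8776 in Raji (-0.60). The other 3 measured probe sets of NDUFA10 gave 0.81, 0.44 and -0.32, so its probe sets disagreed in direction. NDUFA9 was also the highest and NDUFA10 among the lowest in the Jeko-1 pair, where NDUFA10 had 2603 in Jeko-1/R and 3307 in Jeko-1 (-0.35).

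In complex II, the flavoprotein SDHA, which oxidizes succinate, had 4954 in Raji/R and 3995 in Raji (0.31), SDHC had 3466 and 3216 (0.11), and SDHD had 9076 and 11767 (-0.37). The 3 genes thus did not share a direction. In complex III, CYC1, which encodes cytochrome c1, had 26058 in Raji/R and 18885 in Raji (0.46), UQCRC1 had 7265 and 5266 (0.46), and the core protein UQCRC2 had 16180 and 15538 (0.06). In complex IV, COX6B1 had 30068 in Raji/R and 21149 in Raji (0.51), and COX6C had 41298 and 42077 (-0.03). In ATP synthase, ATP5F1B, the catalytic beta subunit, had 46871 in Raji/R and 34045 in Raji (0.46), and ATP5F1C, the gamma subunit of the rotor, had 24610 and 28223 (-0.20). COX6A2, the heart and muscle isoform of a complex IV subunit, had 260 in Raji/R and 116 in Raji (1.16). Except COX6A2, NDUFB7, NDUFV1 and NDUFA10, every measured subunit gene was within 1.5-fold in this pair once low values were raised to the floor.

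**Figure D2:**
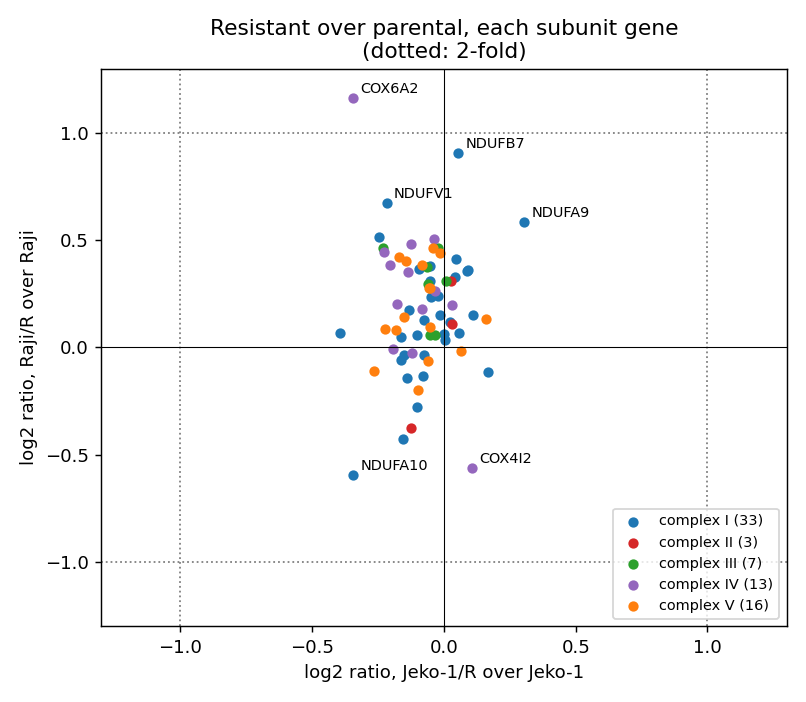
Log2 ratio of Raji/R over Raji against that of Jeko-1/R over Jeko-1, 1 point per subunit gene measured in the pairs, coloured by complex, with 2-fold dotted. The points spread more along the vertical Raji axis (-0.60 to 1.16) than along the horizontal Jeko-1 axis (-0.39 to 0.31).

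The signs of the subunit ratios were mixed across the pairs. Of 72 genes measured in both, 39 had a ratio below 0 in the Jeko-1 pair and above 0 in the Raji pair. Another 16 were above 0 in both, 14 below 0 in both, and 3 above 0 in the Jeko-1 pair alone. All genes were not counted in this way, so the split has no background share and is not read as particular to the subunit genes. Across these genes, which share the same 4 arrays, Pearson's r between the pairs was 0.04, given as a description. In the limma fit over all 4 arrays with cell line as a block, 0 of the 74 subunit genes differed between resistant and parental cultures at an adjusted p under 0.05, against 0% of all 15433 genes. At an unadjusted p under 0.05 there were 0 subunit genes and 344 genes in all, and the lowest adjusted p of any gene was 0.973. The fit had 1 residual degree of freedom. The median log2 difference of the subunit genes was 0.07, against 0.03 for all genes. The fitted differences were 0.44 for NDUFA9, 0.48 for NDUFB7 and -0.47 for NDUFA10.

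The lines themselves differed far more. Subunit signals of complexes I, III, IV and V were mostly lower in the Jeko-1 cultures than in the Raji cultures. Over all complexes the median gap was 1.61 on the log2 scale, or 3.05-fold, against 0.28, or 1.22-fold, for all genes. All genes are a dimmer set. The 95th percentile of all probe sets was log2 11.82 on Jeko-1/R, 11.84 on Jeko-1, 11.86 on Raji/R and 11.93 on Raji. The median signal of the subunit genes, given above, exceeded it on every array. Genes matched to the subunit genes in signal were not compared. In the limma fit with resistance state as a block, 63 of 74 subunit genes were lower in the Jeko-1 cultures at an adjusted p under 0.05 and 0 were higher, against 30.1% lower and 23% higher of all genes, and 41.4% and 25.4% of genes in the upper quartile. The 63 include COX8C and COX4I2, which were below the floor on 1 or both Jeko-1 arrays; of the 70 genes above the floor on all 4 arrays, 61 were lower. For 71 genes both Jeko-1 arrays lay below both Raji arrays, against 42.5% of all genes and 55% of the upper quartile. In NDUFA5 both Jeko-1 arrays lay above, as in 29.5% of all genes, and in NDUFB3 and COX6B2 the lines overlapped. Of the 74 genes, 57 were at least 2-fold and 24 at least 4-fold lower. All genes were not counted at these sizes, so the counts have no background share beside them. The median difference was -1.79 between Jeko-1/R and Raji/R and -1.42 between Jeko-1 and Raji.

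Here the parental culture and the subline are the 2 arrays of a line, so the spread behind these p-values is not that between replicate cultures of 1 state. Fits on 3 arrays also leave out the resistance term, since no residual degree of freedom would remain with it; without that term alone, 66 genes were lower on all 4 arrays. Without either one of the Jeko-1 arrays in these fits, 0 subunit genes and 0 of 15433 genes were called by limma. The median difference of the subunit genes stayed between -1.76 and -1.48 over all 4 fits that left out 1 array. With quantile normalization, 49 of 73 genes were lower, 48 of them among the 63 called as deposited, and the median was -1.04, against -0.31 for all genes and -0.17 for the upper quartile. The labels name no array batch, so line and any batch cannot be told apart. Nor can fewer cells of a kind and less RNA per cell be told apart in bulk RNA.

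**Figure D3:**
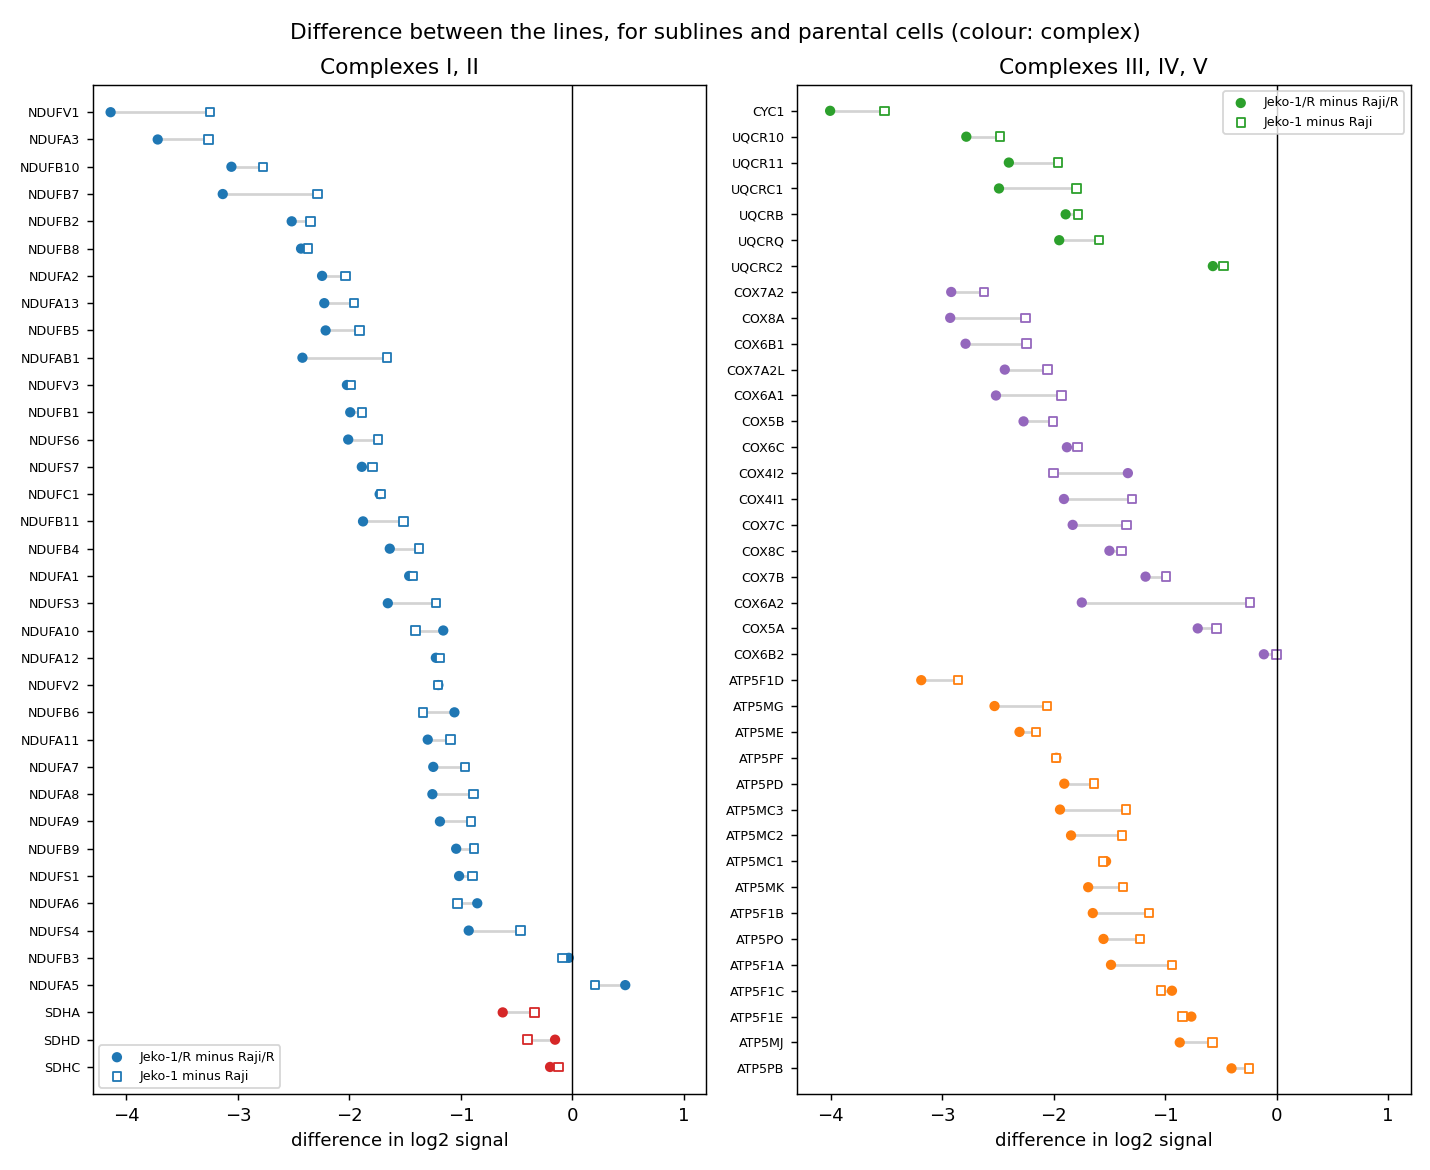
Log2 difference between the lines for each of 74 subunit genes, grouped and coloured by complex, with a filled circle for Jeko-1/R minus Raji/R and an open square for Jeko-1 minus Raji. Nearly all genes of complexes I, III, IV and V lie below 0, with CYC1, NDUFV1 and NDUFA3 lowest, while the 3 complex II genes lie near 0.

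In complex I, 30 of 33 genes were lower in the Jeko-1 cultures, with a median difference of -1.51, and -1.06 after quantile normalization. All 5 core subunits were among them (median -1.44), as were 25 of 28 accessory subunits (median -1.60). For the core subunit NDUFS1 this holds for its brightest probe set alone. NDUFV1 had signals of 1374 in Jeko-1/R and 1598 in Jeko-1, against 24253 in Raji/R and 15208 in Raji. The difference was -3.70 ± 0.30 (SE; limma adjusted p = 9.85e-05), a 13.0-fold difference. NDUFA3, a small membrane-arm subunit, had 1677 and 1788 in the Jeko-1 cultures, against 22078 and 17156 in Raji/R and Raji, a difference of -3.49 ± 0.26 (SE; adjusted p = 7.74e-05). NDUFB10, also of the membrane arm, had 3408 and 3529 in the Jeko-1 cultures, against 28384 and 24142 in the Raji cultures, a difference of -2.92 ± 0.25 (SE; adjusted p = 0.000124). In each of these genes both arrays of a line lay far from both arrays of the other.

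The exceptions in complex I were NDUFS4, NDUFA5 and NDUFB3. NDUFA5, an accessory subunit of the matrix arm, had 3387 in Jeko-1/R and 3769 in Jeko-1, against 2439 in Raji/R and 3279 in Raji, a difference of 0.34 (adjusted p = 0.292). NDUFB3, a small membrane-arm subunit, had 3167 and 3347 in the Jeko-1 cultures, against 3238 and 3557 in the Raji cultures, a difference of -0.06 (adjusted p = 0.852). NDUFS4 had 1010 and 1328 in the Jeko-1 cultures, against 1924 and 1836 in the Raji cultures, and narrowly missed the threshold with -0.70 (adjusted p = 0.0563).

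None of the 3 complex II genes with a value (0 of 3) was called, and their median difference was -0.28. SDHA had 3212 in Jeko-1/R and 3152 in Jeko-1, against 4954 in Raji/R and 3995 in Raji, a difference of -0.48 ± 0.25 (SE; adjusted p = 0.146). SDHC had 3017 and 2952 in the Jeko-1 cultures, against 3466 and 3216 in the Raji cultures, a difference of -0.16 ± 0.24 (SE; adjusted p = 0.603). SDHD had 8148 and 8893 in the Jeko-1 cultures, against 9076 and 11767 in the Raji cultures, a difference of -0.28 ± 0.25 (SE; adjusted p = 0.375). Each of the 3 was lower on both Jeko-1 arrays, by less than in most genes of the other complexes; a difference between complexes was not tested. All 5 other measured probe sets of SDHC pointed the other way, by up to 2.04.

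In complex III, 6 of 7 genes were lower in the Jeko-1 cultures (median -2.14, and -1.20 after quantile normalization). CYC1 had the largest difference of all subunit genes, with 1623 in Jeko-1/R and 1648 in Jeko-1, against 26058 in Raji/R and 18885 in Raji, or -3.76 ± 0.26 (SE; limma adjusted p = 6.49e-05), a 13.6-fold difference. UQCR10 had 7441 and 7408 in the Jeko-1 cultures, against 51232 and 41400 in the Raji cultures (-2.63). The paired core proteins were unequal, since UQCRC1 differed by -2.14, with 1293 and 1519 in the Jeko-1 cultures, against 7265 and 5266 in the Raji cultures. UQCRC2 had 10881 and 11149 in the Jeko-1 cultures, against 16180 and 15538 in the Raji cultures, a difference of -0.53 (adjusted p = 0.112).

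In complex IV, 12 of 15 measured genes were lower in the Jeko-1 cultures (median -1.67, and -1.18 after quantile normalization, with 9 of 14 called), COX4I2 and COX8C included. The median of -1.67 is the value of COX4I2 itself, and COX4I2, COX6A2, COX6B2 and COX8C were not above the floor on every array. Of the ubiquitous genes, only COX4I1, COX7C, COX7B and COX5A lay nearer to 0 than this median. Among the ubiquitous isoforms, COX7A2 had 10945 and 11203 in the Jeko-1 cultures, against 82765 and 69019 in the Raji cultures (-2.77). COX6A1 had 14432 and 16622 in the Jeko-1 cultures, against 82639 and 63368 in the Raji cultures (-2.22). COX4I1, which helps set the response of the enzyme to ATP, had 19285 and 21037 in the Jeko-1 cultures, against 72368 and 51730 in the Raji cultures (-1.60). COX6B1 differed by -2.52, with 4347 and 4466 in the Jeko-1 cultures, against 30068 and 21149 in the Raji cultures. COX8A had 7026 and 8231 in the Jeko-1 cultures, against 53469 and 39278 in the Raji cultures (-2.59). COX7B had 11175 and 12779 in the Jeko-1 cultures, against 25253 and 25402 in the Raji cultures (-1.08). COX5A, which differed by -0.62, was not called (adjusted p = 0.0683).

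The tissue-restricted partners stood at or near the floor. COX4I2, the lung isoform, had 83.4 in Jeko-1/R and 56.4 in Jeko-1, against 210 in Raji/R and 310 in Raji, a difference of -1.67 (limma adjusted p = 0.00199) with Jeko-1 raised to the floor. COX6A2 had 74.1 and 98.3 in the Jeko-1 cultures, against 260 and 116 in the Raji cultures, and was not called (-0.99, adjusted p = 0.0603). COX8C had 2.64 and 8.03 in the Jeko-1 cultures, both below the floor, against 219 and 203 in the Raji cultures, so that it was at least 2.72-fold lower. Because COX8C passed the floor only through the Raji arrays, its call follows from the filter and carries no weight. COX6B2, the testis isoform, was above the floor only in Raji/R, at 83.9. COX7A1 stayed below the floor at 6.61, 6.08, 16.5 and 4.63 on Jeko-1/R, Jeko-1, Raji/R and Raji, and COX7B2 at 3.51, 38.7, 44.7 and 33.0. Each of these genes was thus below the floor on at least 1 array, while their ubiquitous partners were above it on all 4.

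In ATP synthase, 15 of 16 measured genes were lower in the Jeko-1 cultures (median -1.54). All 5 genes of the F1 part, here with its rotor subunits such as ATP5F1C and ATP5F1D, were called (median -1.21). So were 10 of 11 genes of the peripheral stalk and membrane part (median -1.62). ATP5F1D, the delta subunit of the rotor, had 1547 in Jeko-1/R and 1609 in Jeko-1, against 14093 in Raji/R and 11646 in Raji, a difference of -3.02 ± 0.25 (SE; limma adjusted p = 0.000112). ATP5F1A, the alpha subunit, had 24886 and 27536 in the Jeko-1 cultures, against 69700 and 52718 in the Raji cultures (-1.21). ATP5PB had 15756 and 18921 in the Jeko-1 cultures, against 20862 and 22501 in the Raji cultures (-0.33, adjusted p = 0.298). The calls of complex V depended on the scaling, since with quantile normalization its median was -0.60 with 7 genes called, and that of the F1 part was -0.17 with 1 of 5.

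Probe sets of a gene did not always share a direction. Of the 40 genes with several measured probe sets, 22 had every probe set lower in the Jeko-1 cultures and 18 had at least 1 that was higher. Of the 63 called genes, 34 had other measured probe sets; these ran the same way in 21 genes, and in 7 (ATP5F1C, ATP5MC3, COX4I1, COX7B, NDUFB4, NDUFB8 and NDUFS1) an opposite probe set differed by at least 2-fold. In NDUFS1 all 4 other measured probe sets pointed the other way, by up to 1.09. All values above are those of the brightest probe set unless another is named. When a gene's probe sets were averaged, the median difference was -1.19 with 47 genes lower and 1 higher. Without the probe sets that can bind several transcripts it was -1.34, with 41 of 60 genes lower and 4 higher.

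**Figure D4:**
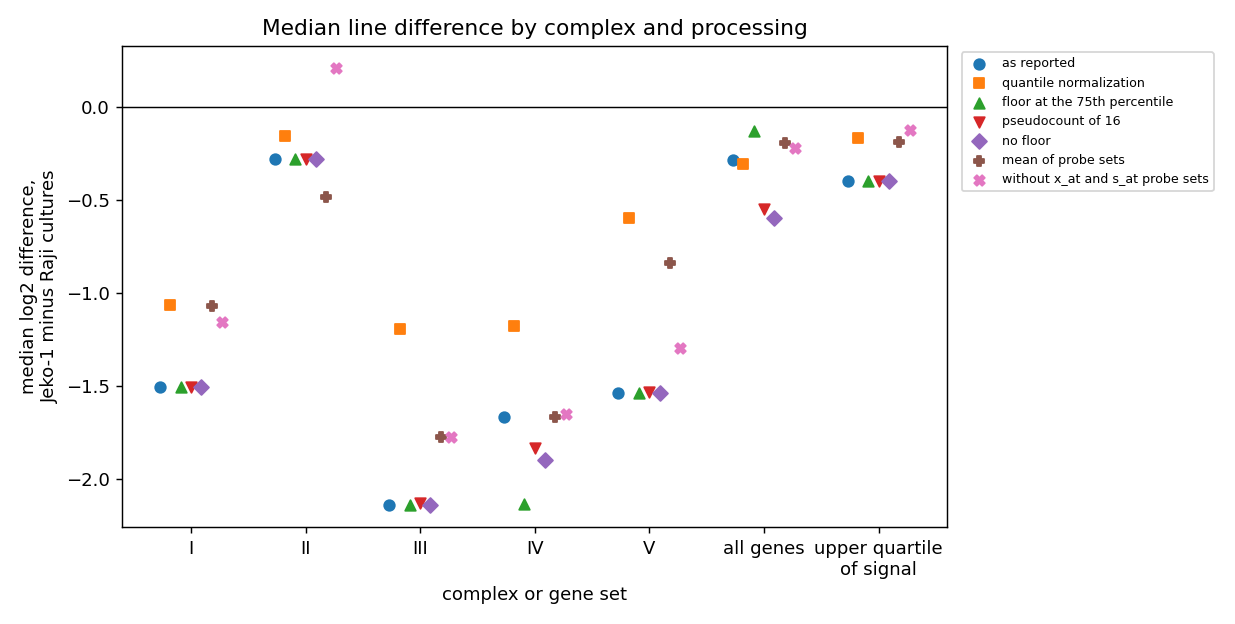
Median log2 difference of the Jeko-1 cultures minus the Raji cultures for each complex, for all genes and for the upper quartile by mean signal, with 1 mark for each way of processing the values. Complexes I, III, IV and V lie below 0 in every setting drawn and nearest to it with quantile normalization, while complex II lies between -0.48 and 0.21.

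Promoters of 65 subunit genes were matched in RefSeq's table (GRCh38.p14) as windows of 250 bases before to 50 after the start. The motif of nuclear respiratory factor 1 (NRF1), searched as GCGC, any base and TGCGC in a row, occurred on either strand in 16 of them, or 24.6%, against 6.28% of all 27305 promoters and 10.2% of those of measured genes. CCGGAAGT, bound by ETS factors such as GABPA, occurred in 13.8%, against 4.44% and 7.45%. AAGATGGCG, bound by YY1, occurred in 10.8%, against 1.85% and 3.32%, and TATAAA occurred in 10.8%, against 12.0% and 7.24%. At least 1 of the first 3 motifs was found in 28 subunit promoters, or 43.1%, against 11.5% and 19.1%. The median GC content of the windows was 61.3%, against 58.3% for all promoters. The 250 bases before the start are shown for 2 of the genes with the lowest p between the lines and for the complex II genes in the table, with NRF1 and ETS letters in capitals. NDUFV1 lies at chr11:67606686-67606935, NDUFA3 at chr19:54102605-54102854, SDHA at chr5:218070-218319 and SDHD at chr11:112086623-112086872, all on the plus strand.
NDUFV1: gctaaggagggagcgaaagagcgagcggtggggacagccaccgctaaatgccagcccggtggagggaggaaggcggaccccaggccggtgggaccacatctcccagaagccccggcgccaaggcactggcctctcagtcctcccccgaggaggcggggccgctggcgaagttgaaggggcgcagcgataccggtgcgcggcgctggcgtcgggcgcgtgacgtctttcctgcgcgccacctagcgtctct
NDUFA3: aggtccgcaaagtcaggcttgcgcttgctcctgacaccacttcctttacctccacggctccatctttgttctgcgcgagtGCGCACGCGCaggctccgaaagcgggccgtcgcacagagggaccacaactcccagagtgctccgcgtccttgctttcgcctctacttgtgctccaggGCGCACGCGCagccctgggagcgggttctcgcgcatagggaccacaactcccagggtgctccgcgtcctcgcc
SDHA: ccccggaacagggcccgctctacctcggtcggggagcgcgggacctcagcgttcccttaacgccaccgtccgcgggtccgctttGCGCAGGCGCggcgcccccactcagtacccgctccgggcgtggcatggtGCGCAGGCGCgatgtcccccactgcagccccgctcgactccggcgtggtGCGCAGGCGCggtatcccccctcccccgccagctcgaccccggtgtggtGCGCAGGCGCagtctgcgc
SDHD: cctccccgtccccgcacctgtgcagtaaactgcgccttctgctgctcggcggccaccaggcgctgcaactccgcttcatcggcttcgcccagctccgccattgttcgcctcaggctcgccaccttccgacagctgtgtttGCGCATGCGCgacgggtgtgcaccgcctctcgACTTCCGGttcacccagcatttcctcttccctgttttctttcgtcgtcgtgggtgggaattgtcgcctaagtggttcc
NDUFV1, with a difference of -3.70, held none of these letters in the bases shown, and NDUFA3, with -3.49, held the NRF1 letters at 2 places. SDHA, with -0.48, held them at 4 places, and SDHD, with -0.28, held NRF1 and ETS letters at 1 place each. The letters thus occurred in promoters of genes with large and with small differences between the lines, and a match is a description of the sequence only.

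Other genes of the pathway are given from lists of their own, and their counts between the lines stand against 30.1% lower and 23% higher of all genes. Of the 13 subunits encoded by mitochondrial DNA, 7 had a value, and 2 of them, COX2 and COX3 (here subunits of cytochrome c oxidase), were lower in the Jeko-1 cultures, a share near that of all genes, with a median of -0.44 over the 7. After quantile normalization the median was 0.58 with 2 genes higher, so the direction depended on the scaling. COX2, which carries the copper site that accepts electrons from cytochrome c, had 38811 in Jeko-1/R and 40605 in Jeko-1, against 75806 in Raji/R and 60344 in Raji. Within the pairs, the median ratio of these genes was 0.06 for Jeko-1/R and -0.01 for Raji/R, and the largest ratios were those of ND2 in the Jeko-1 pair (0.24) and ND4 in the Raji pair (0.36).

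Of 52 assembly factors, 31 were lower and 8 higher in the Jeko-1 cultures (median -1.04). UQCC2, an assembly factor of complex III, was the only gene of these lists at least 2-fold apart in a pair, with 20.6 in Raji/R, below the floor, and 172 in Raji, and was thus at least 2.22-fold lower. Of 17 genes for coenzyme Q synthesis and electron carriers, 8 were lower and 2 higher (median -0.62), and 7 and 1 after quantile normalization, where CYCS, the gene of cytochrome c, lost its call, with -0.0025 in place of -0.93. The largest ratios were 0.80 for COQ8B in the Jeko-1 pair and 0.74 for COQ4 in the Raji pair. Of 11 measured citric acid cycle genes, 8 were lower and 2 higher (median -1.18), and the largest ratios were 0.25 for OGDH in the Jeko-1 pair and 0.85 for IDH3G, a subunit of isocitrate dehydrogenase, in the Raji pair. All 4 measured genes for ATP export, phosphate import and ATP synthase inhibition were lower (median -1.45), but 2 after quantile normalization, where the phosphate carrier SLC25A3 was at -0.37 (adjusted p = 0.222) and the ADP/ATP carrier SLC25A5 at 0.04 (adjusted p = 0.903). Within the pairs the largest ratios were -0.21 for SLC25A4 in the Jeko-1 pair and 0.49 for SLC25A3 in the Raji pair. Of 75 mitochondrial ribosomal protein genes, which make the mitochondrially encoded subunits, 50 were lower and 3 higher (median -1.22), and the largest ratios were 0.45 for MRPL28 in the Jeko-1 pair and 0.99 for MRPS2 in the Raji pair.

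The 16 regulators of subunit genes and mitochondrial DNA did not share a direction between the lines, with 5 lower and 6 higher in the Jeko-1 cultures, against 30.1% and 23% of all genes, and a median of -0.06. In the pairs the largest ratios were -0.52 for MTERF1 in Jeko-1/R, at 134 against 193 in Jeko-1, and 0.67 for PPARGC1A in Raji/R, at 123 against 23.8 in Raji, which lay below the floor. Both genes were dim on all arrays.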

How the data were processed

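Total RNA of 4 cultures was extracted with Trizol and biotinylated cRNA made from 6 ug, per the labels' protocols. The authors deposited MAS5 signals on the log2 scale for 54613 probe sets, per the submitters' processing notes, which give no MAS5 version; base 2 was inferred from the range of the values. Of the probe sets, 41091 had 1 gene symbol in the platform annotation, 1801 several and 11721 none; gene IDs of 41037 matched RefSeq (GRCh38.p14), with 0 symbols changed. The probe set brightest on average over the 4 arrays stood for a gene, and values below the pooled median were raised to it. MAS5 scales an array by 1 factor, so differences that depend on signal level remain.

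With 1 array a group, a pair is described by its ratio and by sizes of 2-fold and 1.5-fold, with no test; a gene counted where at least 1 of its arrays reached the floor. limma 3.58.1 (R 4.3.3) was fitted to 15433 genes on all 4 arrays with line and resistance as terms (1 residual and 5.95 prior degrees of freedom), with two-sided tests and Benjamini-Hochberg adjustment over all genes. A subline and the parent it was derived from share a line, which is the source of the pairing. Nothing in the labels speaks of separate cultures, so p-values measure only the spread among these arrays. The number of arrays limits precision. The limma comparison between the lines was also run on simulated data with independent noise on each array. The real arrays of a line are a parent and its own subline, so that run does not check the p-values above. Python 3.11.15, pandas 2.3.3 and statsmodels 0.14.6 were used. Alternatives were quantile normalization, lowess adjustment (fraction 0.3), a floor at the 75th percentile (a signal of 367), a pseudocount of 16, no floor, other probe set choices, no block and leaving out arrays.

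The members and lists were chosen with earlier results of these data known. By the rule, values on every array were given for the highest and lowest member of each complex in each pair, members past 2-fold, complex II, CYC1, isoform pairs, the 5 lowest p between the lines and the largest ratios of each list. Further members, such as those not called between the lines, were given values after these were seen.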

Additional observations from a re-analysis of the deposited data

Results flagged for a closer look

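COX6A2, the heart and muscle isoform of a complex IV subunit, moved in opposite directions in the pairs. Its log2 ratio was 1.16 for Raji/R over Raji, with signals of 260 and 116, while Jeko-1/R, at 74.1, lay below the floor against 98.3 in Jeko-1. The difference between the pairs was not tested, and the gene is read by 1 dim probe set.

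NDUFV1-DT, a non-coding transcript named after its divergent neighbour NDUFV1 and not counted among the subunits, had a log2 ratio of 1.31 for Raji/R over Raji, with signals of 539 and 218. In the Jeko-1 pair its signals were 109 in Jeko-1/R and 168 in Jeko-1 (-0.63). NDUFV1 itself had ratios of 0.67 and -0.22 in these pairs.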

How the results depend on the processing

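In the Jeko-1 pair, the mean of all probe sets gave 1 gene at least 2-fold higher and 1 lower, and 1 and 2 at 1.5-fold. Without probe sets that can bind several transcripts, 1 gene was 1.5-fold higher. Counting 3 non-coding transcripts, an alternative chosen after seeing the data, gave 1 at 1.5-fold lower. The complex II median was -0.064 when probe sets were averaged, and that of complex III 0.0053 with quantile normalization. In the Raji pair the median was 0.0108 with quantile normalization and 0.056 with lowess. Genes at least 2-fold higher numbered 0 with lowess or the higher floor, 2 with a pseudocount, no floor, the mean of probe sets or the non-coding transcripts, and 3 without probe sets that can bind several transcripts. With the mean of probe sets 2 genes were 2-fold lower, 5 at 1.5-fold higher and 2 at 1.5-fold lower. Without probe sets that can bind several transcripts these counts were 1, 6 and 3, and the non-coding transcripts gave 2 at 1.5-fold lower. Reversed medians were -0.23 for complex II without such probe sets and -0.0267 for complex IV with quantile normalization, and NDUFV1 was at -0.46 with the mean of its probe sets. Between resistant and parental cultures the median was -0.0064 with quantile normalization, and 0 members were called under any alternative run, including the fit with no replicate block.

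Between the lines, the count of genes lower in the Jeko-1 cultures was 66 with no replicate block, 65 of 70 with the higher floor, 55 with the pseudocount, 40 with no floor, 41 without probe sets that can bind several transcripts, and 0 to 60 when 1 array was left out. Genes higher were 1 when probe sets were averaged and 4 without probe sets that can bind several transcripts. The median was -1.04 with quantile normalization, -1.19 with the mean of probe sets, -1.34 without such probe sets, and -1.76 to -1.48 with 1 array left out. The complex II median was 0.21 without them. The cause of these changes was not tested. With 1 array left out, resistance was also left out of the model, and the lone array of a line is assumed to vary like the other line. Leaving out an array was not possible for resistant against parental cultures, since no residual degree of freedom remained. Low signals near the floor limit what can be read of COX4I2, COX6A2, COX6B2 and COX8C.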

Other observations

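Between the lines, regulators of subunit genes, these 4 chosen after their values were seen, ran in opposite directions. ESRRA, a nuclear receptor that acts on many subunit genes, had 678 in Jeko-1/R and 807 in Jeko-1, against 7414 in Raji/R and 6175 in Raji, a log2 difference of -3.19 (limma adjusted p = 0.000107). GABPA, the DNA-binding part of an ETS factor, had 2867 and 2971 in the Jeko-1 cultures, against 327 and 246 in the Raji cultures, a difference of 3.36 (adjusted p = 8.58e-05). Its partner GABPB1 differed by 2.13, and TFAM, which packages and transcribes mitochondrial DNA, by 1.27, with 3353 and 3346 in the Jeko-1 cultures, against 1118 and 1731 in the Raji cultures. These genes kept their directions after quantile normalization, at -3.22 for ESRRA, 3.14 for GABPA, 1.87 for GABPB1 and 1.18 for TFAM. In the citric acid cycle list, whose median was -1.18, SUCLA2, a subunit of succinyl-CoA synthetase, was higher in the Jeko-1 cultures by 2.30. Among mitochondrial ribosomal proteins, MRPL1 was higher by 3.55.

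In the Raji pair, the 10 subunit genes on chromosome 19 were all above 0 as deposited, with a median log2 ratio of 0.34. All 1006 measured genes of that chromosome had a median of 0.24. Among the 10, COX6B2 was above the floor only in Raji/R, with a ratio of 0.11. With quantile normalization NDUFA11 was at -0.02, and the others with a value stayed above 0. On other chromosomes 64 subunit genes had a median of 0.15 and 13566 genes one of 0.06. In the Jeko-1 pair the 9 measured chromosome 19 subunit genes had a median of -0.04. This grouping was made after the values were seen and was not tested.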
